A study of Mus musculus with 2 samples.

Results

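The miR-30 family comprises 6 microRNA genes in the mouse, Mir30a, Mir30b, Mir30c-1, Mir30c-2, Mir30d and Mir30e, which lie as pairs at 3 loci. They were taken by gene name from the 2202 microRNA genes of the mouse annotation, and all 6 were present in both files. The material was whole heart from female B6CASTF1/J mice (a hybrid strain) aged 4 days, untreated as far as the labels say. RNA under 30 nt was sequenced in 2 libraries, 1 for each heart, which the labels call biological replicates 1 and 2 and assign to different animals. The labels also give 1 donor entry for both, and the libraries were treated as coming from separate hearts. Both libraries form 1 group, so no condition could be compared, and the data gave the level of each gene, the balance between the partners of a pair and the gap between these 2 hearts.

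MicroRNAs are cut from hairpin precursors and guide Argonaute proteins to messenger RNAs, chiefly through the seed, bases 2 to 8 of the mature strand. Each hairpin can give a mature strand from its 5′ arm (5p) and from its 3′ arm (3p). All miR-30 5p strands are known to share their seed, and in heart the family is known for repressing connective tissue growth factor and the autophagy gene Beclin 1. Partners of a pair are thought to arise from a common primary transcript.

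The mature sequences (RefSeq, GRCm38.p6) show which members can be told apart by their reads, and 4 of the 6 members had an entry. The seed is in capitals. The 5p strands were
miR-30a-5p: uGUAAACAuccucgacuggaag
miR-30e-5p: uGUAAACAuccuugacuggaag
miR-30c-5p (from both Mir30c-1 and Mir30c-2): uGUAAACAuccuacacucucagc
miR-384-5p: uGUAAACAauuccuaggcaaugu
On GRCm38.p6 these lie at chr1:23272274-23272295 (plus strand) for miR-30a-5p and chr4:120772660-120772681 (minus strand) for miR-30e-5p. miR-30c-5p lies at chr4:120769584-120769606 (minus strand) and chr1:23291714-23291736 (plus strand), and miR-384-5p at chrX:105344332-105344354 (minus strand). Positions are counted from 1 at the 5′ end. miR-30a-5p and miR-30e-5p differed by 1 base of 22, C13U. miR-30c-5p matched both over the first 12 bases and then departed from miR-30a-5p at 5 positions of 22. Of 1738 mature entries in the table, 5 carried this seed, and the only gene among them outside the family was Mir384.

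The 3p strands have other seeds, and they separate the genes of miR-30c.
miR-30a-3p: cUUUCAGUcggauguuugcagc
miR-30e-3p: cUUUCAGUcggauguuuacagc
miR-30c-1-3p: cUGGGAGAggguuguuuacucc
miR-30c-2-3p: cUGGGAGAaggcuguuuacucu
They lie at chr1:23272315-23272336 (miR-30a-3p, plus strand), chr4:120772618-120772639 (miR-30e-3p, minus strand), chr4:120769546-120769567 (miR-30c-1-3p, minus strand) and chr1:23291754-23291775 (miR-30c-2-3p, plus strand). miR-30a-3p and miR-30e-3p again differed by 1 base, G18A. miR-30c-1-3p and miR-30c-2-3p differed at 3 positions, G9A, U12C and C22U. Each strand of Mir30a and Mir30e matched 1 of the 1005 hairpins in the table exactly, as did both miR-30c 3p strands, whereas miR-30c-5p matched 2.

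The hairpins of the miR-30c genes show how far the shared part extends. The longest run they share is in capitals, 28 bases that begin with the first base of miR-30c-5p.
Mir30c-1 (chr4:120769534-120769622, minus strand): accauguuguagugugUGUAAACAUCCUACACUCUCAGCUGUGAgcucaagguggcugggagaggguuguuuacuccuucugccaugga
Mir30c-2 (chr1:23291701-23291784, plus strand): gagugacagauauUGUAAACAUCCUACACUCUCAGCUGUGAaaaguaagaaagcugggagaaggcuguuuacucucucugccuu
A read that lies within this run fits both genes. The deposited files tally reads that map to several places apart from every gene, so such a read adds to neither Mir30c-1 nor Mir30c-2. Mir30a and Mir30e shared a run of at most 18 bases, which is shorter than a mature strand.

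By the annotation (mm10, GENCODE M21), the 3 loci differ in their surroundings. On chromosome 4, Mir30e (ENSMUSG00000065409.1, 120772606 to 120772697) and Mir30c-1 (ENSMUSG00000065490.1) lie on the minus strand in introns of Nfyc, which encodes a subunit of the CCAAT-binding factor NF-Y, with their starts 3.07 kb apart. On chromosome 15, Mir30d (ENSMUSG00000065437.1, 68341208 to 68341289, minus strand) lies wholly in an exon of the long intergenic RNA gene Gm20732, and overlaps an exon of Gm37296 by 9 bases. Its partner Mir30b (ENSMUSG00000065476.2, 68337415 to 68337510) starts 3.79 kb away and overlaps an exon of the noncoding gene Gm26621 by 16 bases. On chromosome 1, Mir30a (ENSMUSG00000065405.3, 23272269 to 23272339, plus strand) overlaps no annotated gene. Mir30c-2 (ENSMUSG00000065567.1) starts 19.4 kb further on, inside an exon of the long intergenic RNA gene Gm27028.

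**Figure D1:**
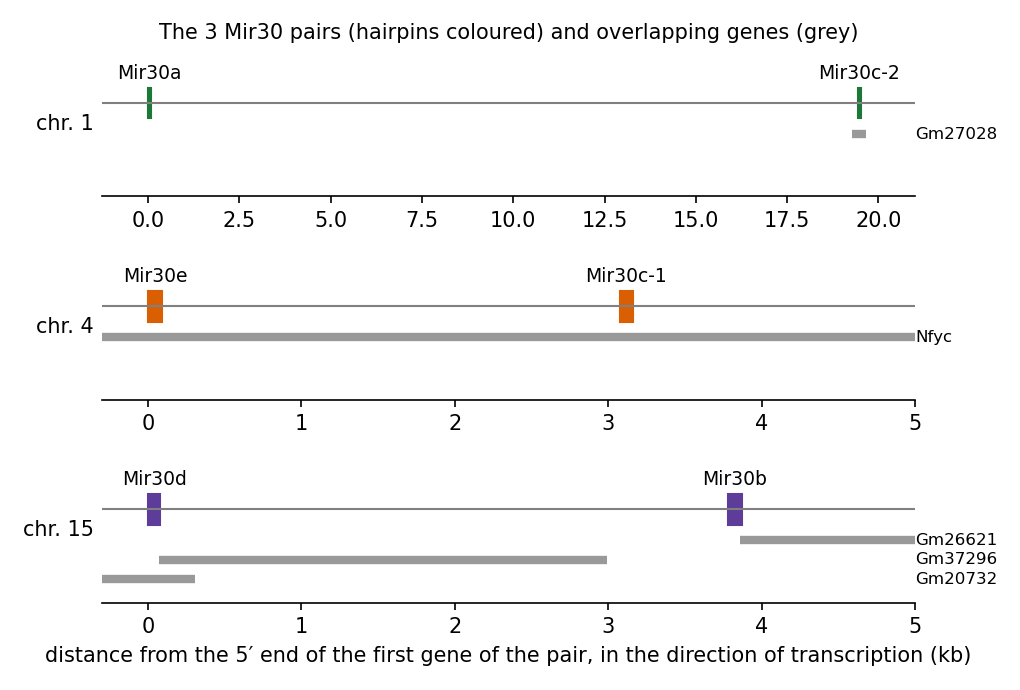
Map of the 3 Mir30 loci, with distance in kb from the 5′ end of the gene of each pair that is transcribed first. The chromosome 1 panel spans a wider range than the other panels, so widths cannot be compared between it and them. Hairpins are coloured, with a minimum drawn width on chromosome 1. Overlapping annotated genes are grey bars, cut at the edge of each panel. The pairs on chromosomes 4 and 15 start 3.07 and 3.79 kb apart, and the pair on chromosome 1 starts 19.4 kb apart; Mir30f, opposite Mir30e, is not drawn.

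The libraries held 6417302 and 5662222 counts on the genes' own strands in replicates 1 and 2. Multi-mapped reads numbered 5722879 and 5835632, which is 39.6% and 43.2% of all reads. Of 7 heart muscle markers, 5 had at least 10 counts in each library. Mir208a stood at 10883 and 6019 CPM (counts per 1000000 own-strand counts), and Mir208b and Mir499 were also above 1000 CPM. Mir1a-1, Mir1a-2, Mir133a-1 and Mir133a-2 lay between 0.353 and 33.6 CPM. Reads that map to several places add to no gene. Low counts of gene copies such as Mir1a-1 and Mir1a-2 therefore do not show that the microRNA itself is scarce. Of the 11 marker lists, neurons alone had no gene with at least 10 counts in each library, and 4 of the 6 neuronal genes were at 0 in both. All 6 are such gene copies (Mir124a-1 to Mir124a-3 and Mir9-1 to Mir9-3), so their low counts do not show that neurons were absent. Kidney and intestine genes held 0.0198% and 0.0364% of the counts, and epithelial genes 0.0595% and 0.0662%.

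In both hearts the family split into 3 abundant and 3 scarce genes, and each pair held a gene of either kind. Mir30d, on chromosome 15, was counted 66132 times in replicate 1 and 111073 times in replicate 2, or 10305 and 19617 CPM. It had the highest mean of the family, 14961 ± 6584 CPM (SD, n = 2), and stood 21st and 14th among all microRNA genes. Mir30a, on chromosome 1, was counted 53648 and 63075 times, or 8360 and 11140 CPM, a mean of 9750 ± 1966 CPM (SD, n = 2). Mir30e, on chromosome 4, was counted 76818 and 41468 times, or 11970 and 7324 CPM, a mean of 9647 ± 3286 CPM (SD, n = 2). The levels of these 3 genes overlapped between the hearts, and their order was not the same: Mir30e led Mir30d and Mir30a in replicate 1, and came last of the 3 in replicate 2.

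The scarce genes were Mir30c-2, Mir30c-1 and Mir30b. Mir30c-2, on chromosome 1, was counted 2818 and 1838 times, or 439 and 325 CPM (mean 382 ± 81.0, SD, n = 2). Mir30c-1, on chromosome 4, was counted 1997 and 1364 times, or 311 and 241 CPM (mean 276 ± 49.7, SD, n = 2). Mir30b, on chromosome 15, was counted 1635 and 1519 times, or 255 and 268 CPM (mean 262 ± 9.54, SD, n = 2). Mir30c-2 lay above Mir30c-1 in both hearts with no overlap, while the ranges of Mir30c-1 and Mir30b overlapped. The scarce genes stood 108th to 135th among all microRNA genes, against 14th to 29th for the abundant ones. The gap was wide beside the spread between the hearts: the lowest abundant gene exceeded the highest scarce gene 19.0-fold in replicate 1 (Mir30a over Mir30c-2) and 22.6-fold in replicate 2 (Mir30e over Mir30c-2). Since a read covers a mature strand rather than a stretch of a long transcript, CPM was not divided by length. Divided by hairpin length and scaled again to 1000000 per library, the order by mean was the same, from Mir30d (14391) over Mir30a (10836), Mir30e (8282), Mir30c-2 (359) and Mir30c-1 (245) to Mir30b (215).

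**Figure D2:**
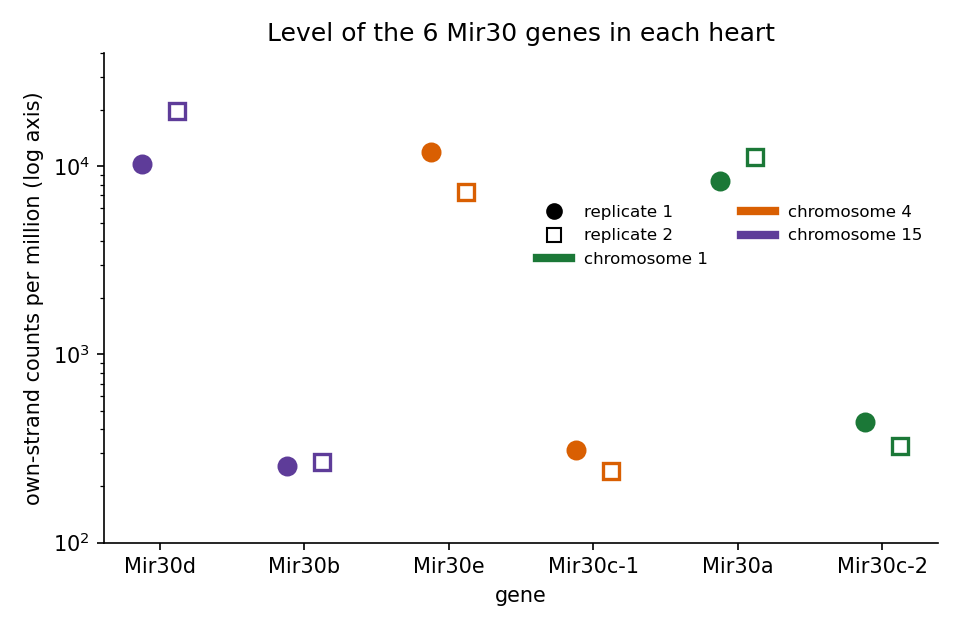
Own-strand CPM (log axis) of the 6 Mir30 genes, with partners side by side, filled circles for replicate 1, open squares for replicate 2 and 1 colour per locus. Mir30d, Mir30e and Mir30a lie between 7324 and 19617 CPM, and Mir30b, Mir30c-1 and Mir30c-2 between 241 and 439 CPM.

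Because reads with several matching places are left out, the counts of Mir30c-1 and Mir30c-2 do not measure miR-30c. They hold only reads with 1 place in the genome, such as reads of the 3p strands. The counts are per hairpin, so the shares of the 5p and 3p strands could not be separated. The multi-mapped reads outnumbered all Mir30 counts 28.2-fold and 26.5-fold, and how many of them came from miR-30c was not tested. No entry for Mir30b or Mir30d was used here, so their sequences were not compared.

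Expressed as a share of all microRNA counts, the 6 genes together held 3.16% in replicate 1 and 3.89% in replicate 2, with 95% Clopper-Pearson bounds of 3.15 to 3.18 and of 3.88 to 3.91. The mean of 3.53% was 1.79% when multi-mapped reads were added to the total. Intervals here cover counting error only and take each read as independent. Reads are not independent molecules, so the intervals may be too narrow. Mir30d, Mir30a and Mir30e made up 96.8% and 97.9% of the family's counts. The split among the members differed between the hearts. Mir30e held 37.8% of the family in replicate 1 and 18.8% in replicate 2. Mir30d held 32.6% and 50.4%, so that it made up most of the family's counts in replicate 2 alone. Mir30a held 26.4% and 28.6%, a smaller gap. The scarce genes together held 3.18% and 2.14%, and each held less in replicate 2: Mir30c-2 held 1.39% and 0.834%, Mir30c-1 0.984% and 0.619%, and Mir30b 0.805% and 0.689%.

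By locus, chromosome 1 held 27.8% and 29.5% of the family's counts, or 8799 and 11464 CPM. Chromosome 4 held 38.8% and 19.4%, or 12282 and 7565 CPM. Chromosome 15 held 33.4% and 51.1%, or 10560 and 19885 CPM. The mean shares were 28.6% ± 1.17, 29.1% ± 13.7 and 42.2% ± 12.5 (SD, n = 2). By these counts, the locus of the largest share was chromosome 4 in replicate 1 and chromosome 15 in replicate 2. The mean order of the loci lay within the spread between the hearts. The sums of chromosomes 1 and 4 leave out reads that fit both miR-30c genes, and what those reads would add was not tested.

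**Figure D3:**
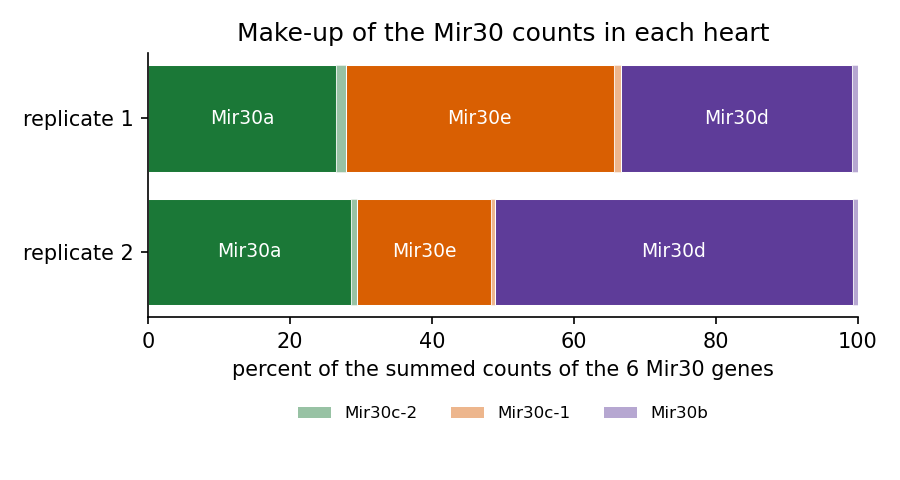
Percent of the summed Mir30 counts held by each gene in replicates 1 and 2, coloured by locus, with the scarce partner of each pair in a paler shade. Mir30e holds 37.8% in replicate 1 and 18.8% in replicate 2, Mir30d holds 32.6% and 50.4%, and the 3 pale segments are thin in both bars.

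Gene by gene, each library was set against the other with an exact binomial test that covers counting error only, adjusted over 491 genes; it compares these 2 libraries and no conditions. Calls required more than a 2-fold ratio together with an adjusted p below 0.05. Mir30d was called, at 2.35-fold higher in replicate 2 (log2 ratio of replicate 1 over replicate 2 −1.23, counting SE 0.01). By CPM alone the ratio was 1.90-fold. It was the 1 member of 6 called, against 7.33% of all genes called as higher in replicate 2. No member was called as higher in replicate 1, against 3.87% of all genes. Of the 71 genes with at least 1000 CPM in each library, 0 were called as higher in replicate 1. In replicate 2, 9 of these 71 were called as higher, Mir30d among them. Mir30a (−0.72) and Mir30b (−0.38) had negative log2 ratios inside 2-fold, and Mir30e (0.41), Mir30c-2 (0.13) and Mir30c-1 (0.07) had positive ones. Adjusted p in the exact binomial test was 9.18e-13 for Mir30b, 0.00532 for Mir30c-2 and 0.319 for Mir30c-1. It was under 0.05 for 5 of the 6 members, all but Mir30c-1, and for 47.0% of all genes tested. The median absolute log2 ratio was 0.39 over the members and 0.43 over all genes tested. Among genes with at least 1000 CPM in each library, it was 0.72 over the 3 members and 0.36 over all 71 genes.

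These results depended on the scaling. Scaled by total counts, the log2 ratio of Mir30d was −0.93, inside 2-fold, but that scaling moved the median of all genes to 0.31. By the same scaling Mir30b was at −0.07 (exact adjusted p = 0.229), Mir30c-1 at 0.37 (exact adjusted p = 8.38e-13) and Mir30c-2 at 0.44 (exact adjusted p = 1.22e-23), so Mir30b and Mir30c-1 changed side of the p threshold, and all 3 stayed inside 2-fold. With DESeq2 size factors the log2 ratio of Mir30d was −1.22. The exact test of edgeR, whose dispersion came from these libraries themselves, gave an adjusted p of 1 for every member and an unadjusted p of 0.0967 for Mir30d, and no member was under 0.05 before adjustment.

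**Figure D4:**
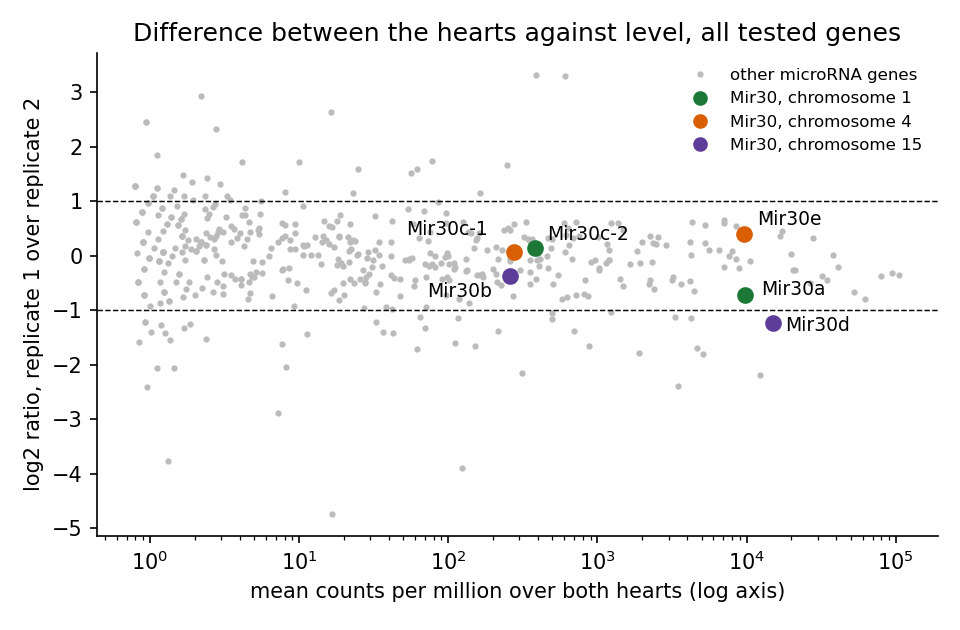
Log2 ratio of replicate 1 over replicate 2 against mean CPM (log axis) for the 491 genes tested, with the Mir30 genes coloured by locus and dashed lines at 2-fold. Mir30d lies below the lower line at −1.23, and the other 5 members lie between −0.72 and 0.41.

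Markers of several cell types also differed between these hearts. The skeletal muscle marker Mir206 stood at 718 CPM in replicate 1 and 58.5 CPM in replicate 2. The fibroblast and mesenchyme list held 1.09% and 2.23% of the counts in replicates 1 and 2. Mir21a stood at 5250 and 19313 CPM but Mir214 at 5595 and 2969 CPM. Mir199a-1, which has a named copy in Mir199a-2, was at 0, and multi-mapped reads were not counted for it. The endothelial marker Mir126a held 5.18% and 7.30%, and the smooth muscle list 4.71% and 6.03%. The heart muscle list held 2.10% and 1.92%, within which Mir208a was higher in replicate 1 and Mir499, at 2653 and 7487 CPM, in replicate 2. Erythroid genes held 0.0788% and 0.0300%, and all 3 were lower in replicate 2. Leukocyte genes held 0.130% and 0.0872%, with Mir142 (240 and 87.4 CPM) and Mir155 (810 and 465 CPM) lower in replicate 2, Mir223 (83.1 and 148 CPM) higher, and Mir150 at 168 and 171 CPM. The epithelial sum was similar, but its members went both ways, with Mir205 at 1.40 and 31.8 CPM and Mir200c at 420 and 284 CPM. Fewer cells of a type and less RNA per cell cannot be told apart in whole tissue, and the part of cell make-up in the shift between Mir30d and Mir30e was not tested.

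Ratios within a library do not depend on scaling, and by them the partners of each locus were far apart. Mir30b made up 2.41% of the counts of Mir30b and Mir30d in replicate 1 (95% Clopper-Pearson bounds 2.30 and 2.53) and 1.35% in replicate 2 (1.28 and 1.42), so Mir30d outnumbered it 40.4-fold and 73.1-fold. Mir30c-1 made up 2.53% of the counts with Mir30e (2.43 to 2.65) and 3.18% (3.02 to 3.36), and Mir30e outnumbered it 38.5-fold and 30.4-fold. Mir30c-2 made up 4.99% of the counts with Mir30a (4.81 to 5.17) and 2.83% (2.71 to 2.96), and Mir30a outnumbered it 19.0-fold and 34.3-fold. The partner that is transcribed first, Mir30d, Mir30e or Mir30a, had the higher count at every locus and in both hearts. The counts of Mir30c-1 and Mir30c-2 leave out reads that fit both genes, such as miR-30c-5p, while each strand of Mir30e and Mir30a matched 1 hairpin. What this contributed to the gaps on chromosomes 1 and 4 was not tested.

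These pairs were read against 114 pairs of neighbouring microRNA genes on 1 strand, with starts within 50 kb. The lower gene held under 5% of the pair in each library in 27 of the 114, among them all 3 Mir30 pairs. The median share of the lower gene was 13.1% over all pairs and 2.86% over the Mir30 pairs. Ranked by that mean share, 13 pairs were more unequal than Mir30b/Mir30d, 17 more than Mir30c-1/Mir30e and 24 more than Mir30c-2/Mir30a. The gene transcribed first was the higher one in both libraries in 60 pairs (52.6%), the lower one in 47, and changed place in 7.

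Of these pairs, 98 had both genes in the RefSeq table. In 18 of them the lower gene alone had a mature strand that also occurs in the hairpin of another gene, as Mir30c-1 and Mir30c-2 do, and its median share was 4.04%. The 2 pairs of miR-30c genes are among these 18, and without them the median over 16 pairs was 4.54%. In 71 pairs neither gene had such a strand, and the median share of the lower gene was 16.9%. It was 9.62% in the 5 pairs in which both genes had one, and 25.9% in the 4 pairs in which the higher gene alone did. The lower gene held under 5% in each library in 10 of the 18 and in 9 of the 71. What the shared strand contributed to the gap within the Mir30 pairs was not tested.

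Between the hearts, none of the 3 pairs shifted by an odds ratio over 2, the size required for a call together with an adjusted p under 0.05, against 19.3% of all neighbouring pairs called. The log2 odds ratio of replicate 1 over replicate 2 was 0.85 for Mir30b against Mir30d (counting SE 0.05, Fisher's exact test, adjusted p = 1.43e-59). It was 0.85 for Mir30c-2 against Mir30a (SE 0.04, exact adjusted p = 6.40e-84) and −0.34 for Mir30c-1 against Mir30e (SE 0.05, exact adjusted p = 1.80e-10). Each shift was therefore beyond the counting error of independent reads, and smaller than 2-fold. The median absolute value was 0.55 over the 114 pairs, and 31, 32 and 78 of them shifted more than the pair of chromosome 15, of chromosome 1 and of chromosome 4.

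**Figure D5:**
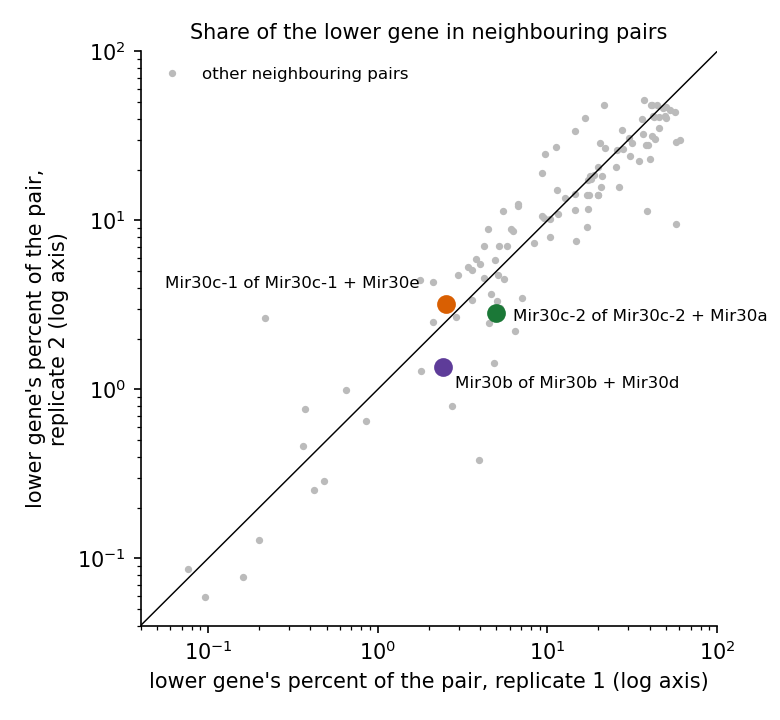
Share of the lower gene in each of 114 neighbouring pairs, replicate 2 against replicate 1 (both axes logarithmic, in percent), with the Mir30 pairs coloured by locus and the diagonal marking equal shares. All 3 coloured points lie between 1.35% and 4.99%; Mir30b and Mir30c-2 lie below the diagonal, and Mir30c-1 lies slightly above it.

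Across all 15 pairings of the 6 members, the absolute log2 odds ratio ran from 0.34 to 0.85 within loci (3 pairings, median 0.85) and from 0.07 to 1.64 between loci (12 pairings, median 0.65). The values within loci thus lay inside the range of those between loci, and a difference between these kinds of pairing was not tested. The highest value belonged to Mir30e and Mir30d, with Mir30e at 53.7% of their sum in replicate 1 and 27.2% in replicate 2. The lowest belonged to Mir30c-2 and Mir30c-1, which lie on different chromosomes. Mir30c-2 made up 58.5% of their sum in replicate 1 (95% Clopper-Pearson bounds 57.1 and 59.9) and 57.4% in replicate 2 (55.7 and 59.1). Their log2 odds ratio of 0.07 had a counting interval of −0.06 to 0.20, the 1 interval of the 15 that included 0, so a shift between the hearts was not detectable at this depth.

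The count columns differed for Mir30e alone among the members. All 6 members had 0 counts on the opposite strand in both libraries. Mir30f is annotated on the plus strand of chromosome 4 over the same bases as Mir30e, 120772606 to 120772697. It had 0 own-strand counts in both libraries, which allows up to 0.467 and 0.530 CPM (3 counts), and its opposite-strand entries, 76818 and 41468, equalled the counts of Mir30e. In the column that ignores strand, Mir30e had 0 counts in both libraries and the other 5 members kept their counts, which raised their shares of the family: Mir30d held 57.2% and Mir30a 38.9% on average in that column, against 41.5% and 27.5%. The Mir30e reads would make up 6.28% and 3.52% of the reads that this column lists as ambiguous. Mir384, which carries the miR-30 seed on the X chromosome, had 2 counts in replicate 1 and 0 in replicate 2, at or below the floor of 3 counts.

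The genes nearest to each member in level were found by Euclidean distance between log2(CPM + 0.5) values over the 2 libraries. Mir22, at 9851 and 19384 CPM, lay nearest to Mir30d (distance 0.07), followed at 0.97 by Mir21a. Mir208a, in an intron of the alpha cardiac myosin gene Myh6, lay nearest to Mir30e (distance 0.31), followed by Mir130a at 9189 and 7769 CPM (0.39). Mir151, at 9163 and 8705 CPM, lay nearest to Mir30a (0.38), and Mirlet7e came next (0.47). Among the scarce members, Mir30c-2 lay nearest to Mir700 (0.06) and Mir434 (0.12), Mir30c-1 to Mirlet7c-1 (0.13) and Mir574 (0.17), and Mir30b to Mir152 (0.06) and Mir101b (0.10). With 2 libraries this likeness rests on 2 values per gene and describes level more than pattern.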

How the data were processed

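For each library the authors deposited a file of raw counts by microRNA gene, with 3 count columns (both strands, own strand, opposite strand, a meaning inferred from the layout) and 4 summary entries. Build mm10 and annotation M21 are named per the file headers of the deposited descriptions; the aligner and counter were not given in the sources used here. The summary entries, 55.6% and 58.0% of reads, stayed out of library sizes and tests. Own-strand counts were used, and CPM was taken on their total. All genes with at least 10 counts in the sum were tested between the libraries with a two-sided exact binomial test on library sizes multiplied by TMM normalization factors (1.11 and 0.900, from edgeR 4.0.16 in R 4.3.3), and neighbouring pairs with two-sided Fisher's exact tests, each with Benjamini-Hochberg adjustment; 0.5 was added to counts in log2 ratios. Both tests were tried on simulated Poisson counts with known library sizes. That setting holds no spread beyond counting error, so it cannot show how the tests behave between these hearts. The libraries are not 1 library deposited again: over 491 genes their chi-square was 709 times its degrees of freedom. Labels name different animals but 1 donor entry, so the spread may be partly or wholly technical.

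Named genes were the 6 members, other genes with their seed, the 2 nearest genes in level per member, and genes of 11 marker lists. Members, lists and tests were chosen with earlier results of these data known. Mature strands came from RefSeq (GRCm38.p6); sequence elsewhere in the genome, and variants of the CAST parent, were not searched. Alternatives were total-count and DESeq2 1.42.0 scaling, the unstranded column, other filters (none, or 50 counts in each library), 5 added to counts, edgeR's exact test, a 10 kb pair distance, hairpin length, multi-mapped reads in the total and leaving out either library. Python 3.11.15, scipy 1.17.1, pandas 2.3.3, numpy 2.4.6 and matplotlib 3.10.9 were used.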

Additional observations from a re-analysis of the deposited data

How the results depend on the processing

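Of 140 recomputed values, 115 kept their direction and stayed called or not called, or moved by less than the spread between the hearts, and none reversed. This tally overstates stability. Leaving out either of 2 libraries always moves a mean by less than that spread. The odds ratios of the Mir30 pairs had the same value in every setting that gave one, and levels and shares have no direction to reverse. Of the 41 log2 ratios of members, 39 stayed the same, 2 changed and 0 reversed. A call needs both the adjusted p and 2-fold, so Mir30b and Mir30c-1, inside 2-fold throughout, stayed uncalled although total-count scaling moved their exact adjusted p from 9.18e-13 to 0.229 and from 0.319 to 8.38e-13, and the unstranded column moved that of Mir30c-1 to 0.00926. Scaled by total counts, 39 genes were higher in replicate 1 and 22 in replicate 2, against 19 and 36 (63.9% against 34.5% of calls higher in replicate 1), and 0 Mir30 genes were called. EdgeR's exact test called 2 and 2 genes and 0 Mir30 genes, 0 of them with an unadjusted p under 0.05. The dispersion of edgeR's test came from the same difference between the libraries that it then tested, which left little room for calls. With at least 50 counts in each library, 9 genes were higher in replicate 1. In the unstranded column, which holds no Mir30e count, chromosomes 1, 4 and 15 held 40.5%, 1.17% and 58.3% of the family's counts, and the pair of Mir30c-1 and Mir30e gave no value. The pair of Mir30c-2 and Mir30a lies beyond 10 kb and gave none at that limit. With multi-mapped reads in the total, the family held 1.79% of counts, against 3.53%; without replicate 1 or 2 it held 3.89% or 3.16%. No paired analysis was possible because the series holds 1 group. The tests cover counting error within 1 library per heart, and Mir30f and Mir384 lay at or below the floor of 3 counts.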
